A study of Mus musculus with 13 samples.

Results

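Myosin heavy chains are the motor proteins of the sarcomere, and the isoform that a muscle fibre makes is the classical mark of its type. The 8 genes described here are the slow or cardiac forms (Myh7, Myh6 and Myh7b), the adult fast forms (Myh2 for type IIa fibres, Myh1 for IIx and Myh4 for IIb) and the developmental forms (Myh3, embryonic, and Myh8, perinatal). They were chosen by gene name on the arrays, 8 among 17257 genes with a probe that could be tested. In all, 13 of the 55681 probes carry 1 of these names, and 10 of the 13 passed the filter on dim probes, among 22716 probes that passed in all. The filter asked that a probe be well above background in the mouse's own channel on at least 6 of the 13 arrays.

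The arrays measured gastrocnemius muscle of adult male C57BL/6J mice, 6 of them wild type and 7 littermates with a UCP1 transgene. UCP1, normally a protein of brown fat, uncouples respiration from ATP synthesis by making the inner mitochondrial membrane leak protons. The mice entered the comparison at 12 weeks of age, and all of them ate a purified low fat diet (LFD) for 12 weeks. RNA of each mouse was labelled with Cy5 and hybridised against a Cy3 pool made from the samples, on 2-colour Agilent 8x60K arrays with no dye swap. The labels do not name the promoter that drives the transgene or the number of founder lines.

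Values are log2 ratios of a mouse over the reference pool. Differences are transgenic minus wild type, with the standard error and the adjusted p of limma, Benjamini-Hochberg over all 22716 probes, and a probe was called at an adjusted p under 0.05. Each array had 37.1 to 43.2% of its probes well above background, none of the arrays had a saturated spot, and their number limits the precision. Over all probes tested, 31.8% were called, 16.0% higher and 15.8% lower in the transgenic mice, so a call alone is common in these data. The same test on the Cy3 reference signal alone, with quantile normalization between arrays rather than ratios, called 0.0396%. The 31.8% and this share therefore come from unlike quantities. The median difference over all these probes was -0.0023 and the median size of a difference was 0.13. The Ucp1 probe read 0.45 on the array labelled wild type 4, inside the transgenic range of -0.20 to 0.85, while the other wild type arrays read -4.23 to -2.82. The array labelled wild type 4 therefore went against its label on this gene, and each member's difference is also given without it. In whole muscle RNA, fewer fibres of a type and less RNA per fibre cannot be told apart.

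In adult muscle, fibre type follows the firing pattern of the motor nerve: calcineurin and NFAT factors, switched on by slow tonic firing, favour slow genes. The mouse gastrocnemius is a mixed muscle made mostly of fast fibres. The fast and developmental genes lie side by side on chromosome 11 in the order Myh3, Myh2, Myh1, Myh4, Myh8. Myh6 and Myh7 lie in tandem on chromosome 14, and Myh7b is alone on chromosome 2.

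The probes show what can and cannot be told apart in so similar a family. Many lie at the 3′ ends of the transcripts, where the isoforms differ, but some lie in the coding part for the end of the rod. The brightest Myh8 probe (A_51_P143296, chr11:67121925-67121984 in mm9, plus strand), the second Myh3 probe (A_55_P2083406, chr11:66915107-66915166) and, for comparison, the Myh15 probe, which was too dim to test, read:
Myh8: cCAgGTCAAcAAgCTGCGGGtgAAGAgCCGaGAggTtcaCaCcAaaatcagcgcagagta
Myh3: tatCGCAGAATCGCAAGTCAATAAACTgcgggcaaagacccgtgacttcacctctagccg
Myh15: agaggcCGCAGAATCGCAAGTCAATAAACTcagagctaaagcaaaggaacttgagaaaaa
Capitals in the Myh8 probe mark the 29 bases identical to the Myh3 probe over 48 aligned bases without gaps (60.4%). Capitals in the Myh3 and Myh15 probes mark an unbroken run of 24 bases that both share. The Myh8 probe also matched the probe of Myh13, the extraocular form, at 28 of 43 aligned bases (65.1%). The transcripts of Myh1, Myh2 and Myh4 were not used here, so whether RNA of these abundant forms binds the Myh8 probe was not tested.

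The promoters of the fast cluster share more than their neighbourhood. RefSeq windows of 300 bases, from 250 before to 50 after each start (GRCm38.p6), matched all 8 genes, with 2 windows for Myh7. The run TTCTAATTATATCC of 14 bases stood in 4 of 32851 such windows (0.0122%), and these were the windows of Myh1, Myh2, Myh4 and Myh8. A second run, TCAAATTAT, stood upstream of it in the same 4 windows and in 59 windows in all (0.18%). The stretches that hold both runs, in capitals, read as follows on the plus strand of chromosome 11.
Myh2: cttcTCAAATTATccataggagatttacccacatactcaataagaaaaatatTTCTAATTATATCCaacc
Myh1: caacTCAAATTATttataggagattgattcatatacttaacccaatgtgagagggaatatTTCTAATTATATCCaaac
Myh4: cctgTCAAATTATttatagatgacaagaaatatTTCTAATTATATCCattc
Myh8: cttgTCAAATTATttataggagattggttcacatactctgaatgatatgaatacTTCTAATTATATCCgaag
They lie at chr11:67170850-67170919, chr11:67199882-67199959, chr11:67237621-67237671 and chr11:67277016-67277087. The consensus site of MEF2, a muscle transcription factor, was searched on both strands and stood in 3.19% of all windows. It matched Myh1, Myh4 and Myh8 at TTATTTATAG, which begins inside the end of the second run, and none of the other 5 members. The CArG box, the site of serum response factor, stood in 1.63% of windows and among the members in Myh4 alone. The letters CATTCC, the core to which TEAD factors bind, stood in 14.7% of windows and in those of Myh1, Myh4, Myh6 and 1 of the 2 Myh7 windows. The E-box letters CANNTG stood in 72.3% of windows and in every member except Myh1 and Myh2. These matches describe letters in a window and no more: Myh1, Myh2, Myh4 and Myh8 share the runs and had unlike differences below.

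The slow and cardiac genes share another feature, since each carries a microRNA within its span. RefSeq places miR-208a inside Myh6, miR-208b inside Myh7 and miR-499 inside Myh7b, and their mature forms, with the seed (bases 2 to 8) in capitals, read:
miR-208a-3p: aUAAGACGagcaaaaagcuugu
miR-208b-3p: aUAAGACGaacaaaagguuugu
miR-499-5p: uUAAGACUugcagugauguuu
The miR-208 forms have the same seed, and miR-499-5p shares all of it but the last base. The microRNAs themselves were not analysed here.

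**Figure D1:**
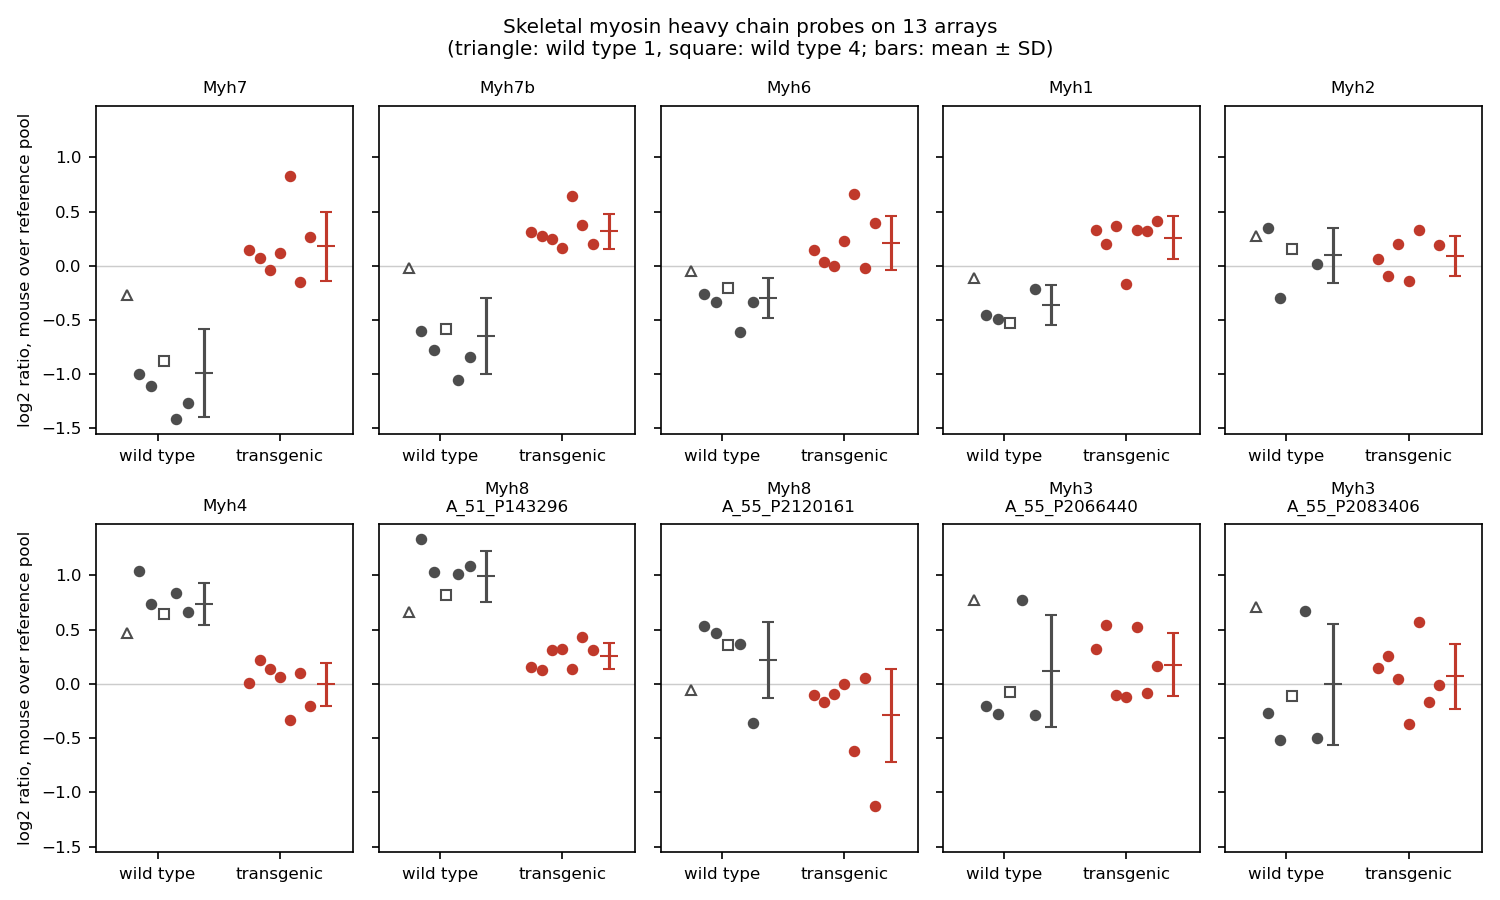
Log2 ratio of each mouse over the reference pool (y axis) for the 10 probes that passed the filter, with wild type arrays in grey and transgenic arrays in red; bars give the mean and SD of each group. The groups did not overlap for Myh7, Myh7b, Myh6, Myh4 and the Myh8 probe A_51_P143296, and wild type 1 (triangle) lay nearest to the transgenic arrays in each of these.

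All 3 slow or cardiac genes were higher in the transgenic muscles. Myh7, the heavy chain of type I fibres, rose most, to 2.25-fold, followed by Myh7b at 1.95-fold and Myh6 at 1.42-fold. Of the 10 member probes tested, 4 were called higher (Myh7, Myh7b, Myh6 and Myh1) against 16.0% of all probes, and 3 were called lower (Myh4 and both Myh8 probes) against 15.8%. The transgenic arrays lay wholly above the wild type arrays for 3 members against 6.98% of all probes, and wholly below for 2 against 7.19%.

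Myh7 was read by 1 probe at the 3′ end (A_55_P2093232, chr14:55589581-55589640 in mm9, minus strand). The wild type arrays, in order from 1 to 6, read -0.26, -1.0, -1.11, -0.88, -1.42 and -1.27. The transgenic arrays 1 to 7 read 0.14, 0.08, -0.04, 0.12, 0.83, -0.15 and 0.27. Every transgenic array was above every wild type array, with wild type 1 far above its own group and transgenic 5 far above the rest. The difference was 1.17 ± 0.16 (SE; 95% interval 0.83 to 1.5; adjusted p = 1.18e-05, limma). Only 1.07% of all tested probes had a difference of larger size. Without wild type 4 it was 1.19, and without wild type 1 it was 1.31. Each of the 4 slides held both groups, and within slides the difference ran from 0.37 on slide 1, which held wild type 1, to 1.40 on slide 4.

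A probe without a gene name, A_55_P2093231, abuts the Myh7 probe on the same strand (chr14:55589521-55589580). Its difference was 1.09 ± 0.14 (adjusted p = 5.32e-06, limma), with no overlap of the groups. Stretches of 30 bases of the Myh7 probe and of its neighbour show that they run on into the end of a transcript, with the letters TAG, a stop codon, and AATAAA, the common polyadenylation signal, in capitals.
Myh7: atgaggagTAGctcttgtgctacccagctc
A_55_P2093231: aggtggaagcagAATAAAgcaattttcctt
Without wild type 4 the difference was 1.08. It is a second reading at the Myh7 locus that the gene names do not pick up.

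Myh7b, a slow-type relative found in slow and extraocular fibres and in heart, was read by a probe in the coding part (A_55_P2057321, chr2:155459122-155459181 in mm9). It is shown because no other probe reads the gene:
Myh7b: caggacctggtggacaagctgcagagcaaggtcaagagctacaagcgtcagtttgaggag
The wild type arrays 1 to 6 read -0.02, -0.60, -0.78, -0.58, -1.05 and -0.84. The transgenic arrays 1 to 7 read 0.31, 0.27, 0.25, 0.16, 0.64, 0.38 and 0.20. The groups did not overlap, and wild type 1 was again the wild type array closest to the transgenic mice. The difference was 0.96 ± 0.12 (95% interval 0.71 to 1.22; adjusted p = 5.01e-06, limma), 0.98 without wild type 4 and 1.09 without wild type 1. On slide 1 it was 0.31, against 0.94, 0.98 and 1.24 on the other slides.

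Myh6, the alpha heavy chain of the heart, was dim, with Cy5 signals of 117 to 444 over local backgrounds of 28 to 32. Its 3′ probe (A_55_P2173952, chr14:55560774-55560833 in mm9) was well above background on all 13 arrays. The other Myh6 probe, near the 5′ end, was at background on all 13 arrays. Wild type arrays 1 to 6 read -0.05, -0.26, -0.34, -0.20, -0.61 and -0.33, and transgenic arrays 1 to 7 read 0.15, 0.04, 0.00, 0.23, 0.67, -0.02 and 0.39. The groups did not overlap, by a narrow margin between wild type 1 and transgenic 6. The difference was 0.51 ± 0.11 (adjusted p = 0.00101, limma) and 0.52 without wild type 4; on slide 1 it was 0.14, against 0.66 on slide 4. None of the 5 markers of heart muscle on the list (Nppa, Nppb, Tnni3, Myl7 and Mybpc3) passed the filter on dim probes. The Myh6 3′ probe and the Myh7 probe had no shared run longer than 6 bases, and the 5′ probe shared 8 with it. Probe letters alone do not show whether Myh7 RNA binds the Myh6 3′ probe, which was not tested.

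Across arrays, once each group's mean was taken out, Myh6 followed Myh7 (Pearson r = 0.90 over 13 arrays) and Myh7b followed Myh7 (r = 0.87). These points share the reference pool, and wild type 1 and transgenic 5 are the extremes of the pattern. Myh4 ran the other way, with r = -0.71 against Myh7 and -0.77 against Myh6.

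**Figure D2:**
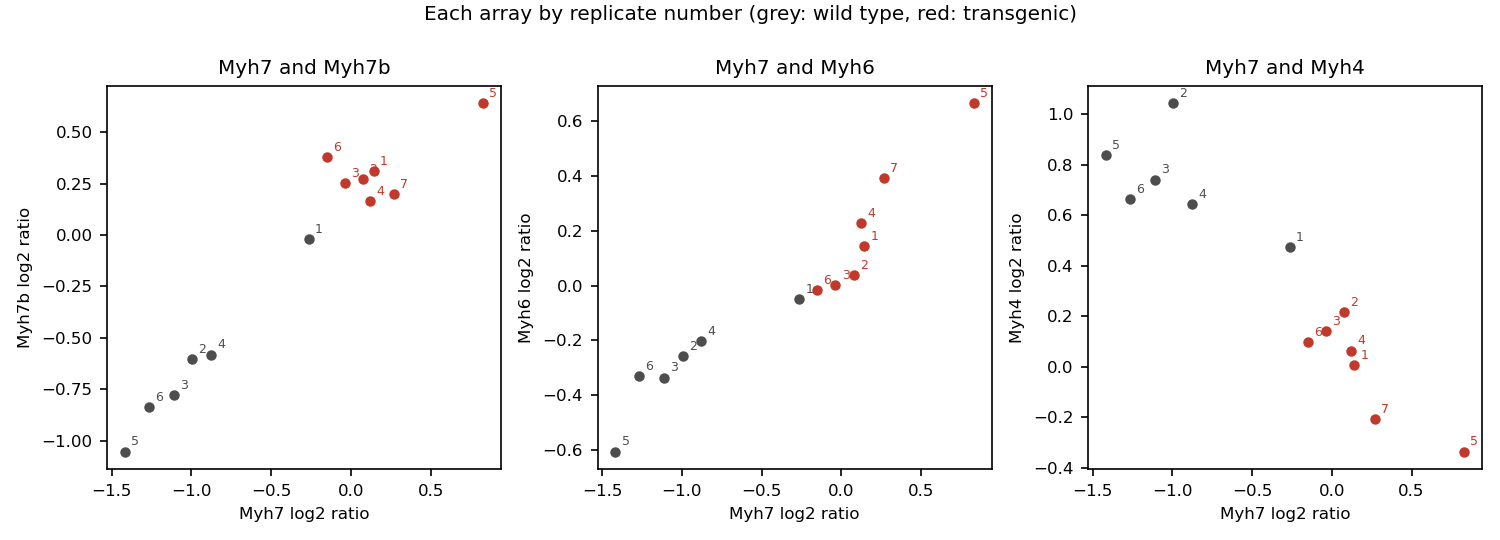
Log2 ratios of Myh7b, Myh6 and Myh4 (y axes) against Myh7 (x axes) on the 13 arrays, each labelled with its replicate number; wild type in grey, transgenic in red. Wild type 1 (Myh7 at -0.26) lies near the transgenic arrays, and transgenic 5 (Myh7 at 0.83) is highest for Myh7, Myh7b and Myh6 and lowest for Myh4.

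The adult fast genes split: Myh1 was higher, Myh4 was lower and Myh2 had no call. Myh1, of IIx fibres, had 1 spot per array (A_55_P2147280, chr11:67038002-67038061 in mm9), and the spot of wild type 5 was marked as an outlier by the scanner software and left out. Wild type arrays 1, 2, 3, 4 and 6 read -0.11, -0.45, -0.49, -0.52 and -0.22. Transgenic arrays 1 to 7 read 0.33, 0.20, 0.37, -0.17, 0.33, 0.32 and 0.42. The 6 other transgenic arrays were above every wild type array, and transgenic 4 alone lay among them. The difference was 0.62 ± 0.10 (95% interval 0.41 to 0.83; adjusted p = 9.59e-05, limma), or 1.53-fold. Without wild type 4 it was 0.58, and with the left-out spot restored (-0.36) it was 0.62.

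Myh2, of IIa fibres, gave no call (A_55_P2106068, chr11:67010960-67011019 in mm9). Outlier marks removed wild type 5 and transgenic 6. The other wild type arrays read from -0.30 (wild type 3) through a median of 0.15 to 0.35 (wild type 2), and the transgenic arrays from -0.14 through 0.13 to 0.33. The groups overlapped over nearly their whole range. The difference was -0.01 ± 0.11 (adjusted p = 0.978, limma) with a 95% interval of -0.24 to 0.23. Other scalings gave 0.18 (Agilent's ratio), 0.23 (the authors' value table), 0.02 (Cy5 alone) and 0.42 (median centring, 0.29 relative to all probes), none of them called. Without wild type 4 it was 0.01, and 97.5% of all tested probes differed by more. Within slides it ran from -0.29 to 0.18.

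Myh4, of IIb fibres and the main heavy chain of fast mouse muscle, was lower (A_51_P338072, chr11:67073834-67073893 in mm9). Its probe ranked between 10 and 20 by Cy5 signal among the 55681 probes of each array. Wild type arrays 1 to 6 read 0.47, 1.04, 0.74, 0.64, 0.84 and 0.66, and transgenic arrays 1 to 7 read 0.01, 0.22, 0.14, 0.06, -0.34, 0.10 and -0.21. Every transgenic array was below every wild type array. The difference was -0.74 ± 0.10 (95% interval -0.94 to -0.53; adjusted p = 7.89e-06, limma), which makes wild type 1.67-fold higher, and it was -0.75 without wild type 4. On slide 1 it was -0.36, against -0.81 to -0.75 on the other slides.

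The size of the Myh4 difference depended on the scaling, and the call was lost under 2 of the settings. It was -0.41 with Agilent's own processed ratio and -0.54 in the authors' value table, both called. With Cy5 alone and quantile normalization, it was -0.12 (adjusted p = 0.158, limma). Quantile normalization gives the probe of a given rank the same value on every array, and this probe stays among the brightest 20. With median centring in place of the intensity-dependent loess curve, it was -0.33 ± 0.22 (adjusted p = 0.393, limma), or -0.45 relative to the median of all probes, which that setting moved to 0.13. In the reference channel after quantile normalization, where no difference belongs, Myh4 differed by 0.17 ± 0.04 (adjusted p = 0.261, limma).

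**Figure D3:**
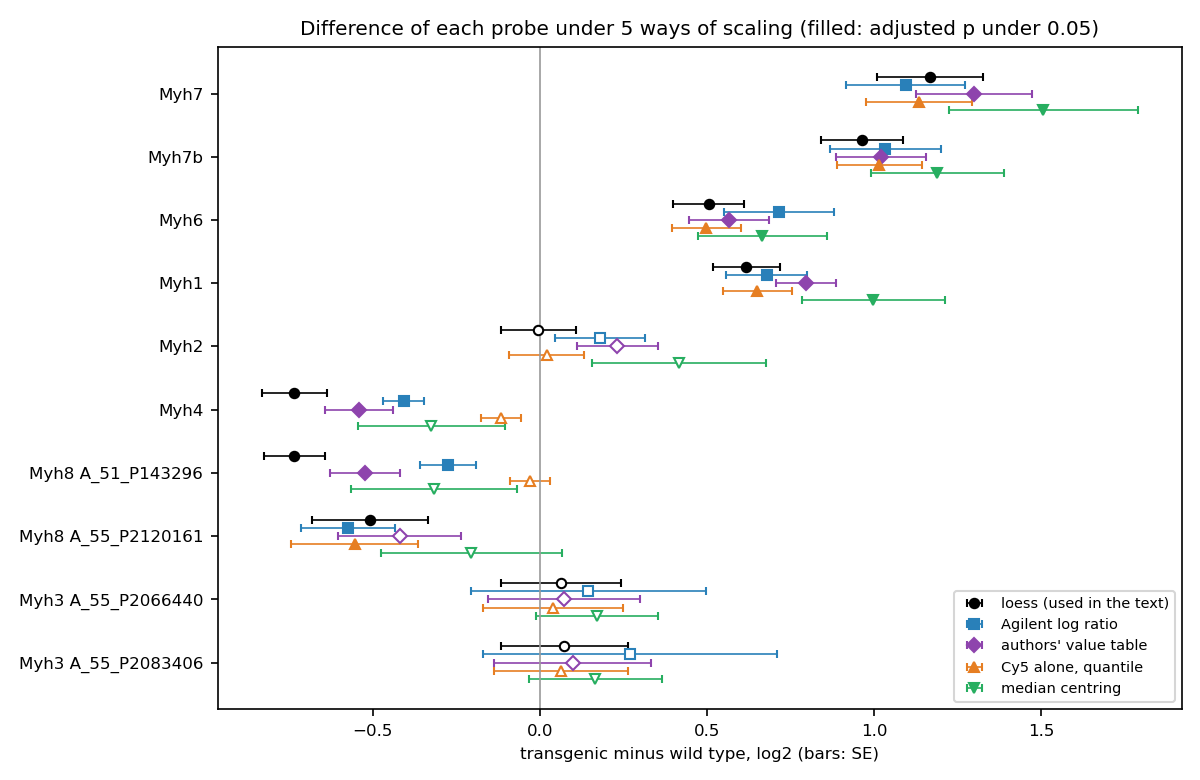
Difference between transgenic and wild type arrays (x axis, log2, with SE) of each of the 10 probes under 5 ways of scaling; filled points passed an adjusted p of 0.05. Myh7, Myh7b, Myh6 and Myh1 stay above 0 and called under all 5, whereas Myh4 and both Myh8 probes stay below 0 but lose the call under some of them.

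Of the developmental forms, Myh8 read lower and Myh3 had no call. Myh8 had 4 probes, and they did not give 1 picture of the gene. The probe in the rod end, printed above, ranked between 2 and 4 by Cy5 signal on each array, with signals of 146400 to 342900. The probe near the 5′ end (A_55_P2120161, chr11:67093475-67093534 in mm9) gave 3316 to 9609. The remaining probes, named for other Myh8 transcripts, were well above background on 1 array (A_55_P2120169) and on 0 arrays (A_51_P239800). Levels of separate probes cannot be set against each other, so only the differences between mice are compared for them.

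At the rod-end probe of Myh8, wild type arrays 1 to 6 read 0.66, 1.34, 1.03, 0.82, 1.02 and 1.09, and transgenic arrays 1 to 7 read 0.16, 0.13, 0.32, 0.32, 0.14, 0.43 and 0.31. The groups did not overlap, and wild type 1 was the lowest of its group. The difference was -0.74 ± 0.09 (adjusted p = 3.65e-06, limma), -0.77 without wild type 4. It was -0.27 with Agilent's ratio (adjusted p = 0.0201, limma) and -0.52 in the authors' value table (adjusted p = 0.000735, limma), both called. With Cy5 alone it was -0.03 (0.758) and with median centring -0.32 (0.466), neither called, so the call again depended on the scaling. Its group-centred correlation was 0.61 with Myh4 and 0.23 with the 5′ probe of its own gene, over 13 arrays.

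The 5′ probe of Myh8, in the coding part for the motor domain, is shown because it is the only other Myh8 probe that passed the filter:
Myh8: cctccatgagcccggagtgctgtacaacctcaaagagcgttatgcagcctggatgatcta
Wild type arrays ran from -0.36 (wild type 6) through a median of 0.36 to 0.53, and transgenic arrays from -1.12 (transgenic 7) through -0.10 to 0.05. The groups overlapped through wild type 1 and wild type 6. The difference was -0.51 ± 0.17 (adjusted p = 0.0298, limma). The call was lost when 1 of wild type 2, 3, 4 or 5 or transgenic 5 or 7 was left out, with -0.48 (adjusted p = 0.0543, limma) without wild type 4 and -0.37 without transgenic 7. It was also lost in the authors' value table (-0.42, adjusted p = 0.0899, limma) and with median centring (-0.21, adjusted p = 0.68, limma). The call held with Agilent's ratio (-0.58, adjusted p = 0.00578, limma) and with Cy5 alone (-0.55, adjusted p = 0.0346, limma).

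Myh3, the embryonic form that regenerating fibres make, was dim on both probes, with Cy5 signals of 50.9 to 202. The 3′ probe (A_55_P2066440, chr11:66915724-66915783 in mm9) read 0.77 in wild type 1 and 0.78 in wild type 5, and -0.29 to -0.08 in the other wild type arrays. The transgenic arrays read from -0.12 through a median of 0.17 to 0.54. The wild type group thus fell into a high pair and a low set of 4, with the transgenic arrays between and among them. The difference was 0.06 ± 0.18 (adjusted p = 0.825, limma; 95% interval -0.31 to 0.44), and 0.02 without wild type 4.

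The rod-end probe of Myh3, printed above, was well above background on 5 of 6 wild type and 7 of 7 transgenic arrays. It read 0.71 and 0.67 in the same 2 wild type mice and -0.52 to -0.11 in the other 4. Its difference was 0.07 ± 0.19 (adjusted p = 0.81, limma), and 0.05 without wild type 4. The probes of Myh3 followed each other closely (group-centred r = 0.95 over 13 arrays), so the high pair does not come from 1 spot. Sln, which encodes sarcolipin, a regulator of the calcium pump, followed the Myh3 3′ probe (r = 0.89), as did Rrm2, a subunit of ribonucleotide reductase (r = 0.90).

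The largest difference at any myosin locus belonged to a non-coding RNA. Of the probes within 50 kb of the members, 2310065F04Rik, also named linc-Myh, lies between Myh3 and Myh2 on the opposite strand (chr11:66925963-66926022 in mm9), 10.2 kb from the Myh3 3′ probe. It is known as a long non-coding RNA of fast fibres. Wild type arrays read 0.54 to 0.71 with a median of 0.64, and transgenic arrays read -1.77 to -0.96 with a median of -1.22. The groups lay far apart, and wild type 4 fell with its labelled group. The difference was -1.94 ± 0.10 (adjusted p = 2.09e-11, limma), or 3.84-fold lower, and it was -1.95 without wild type 4. It was called under each of the 13 alternatives of scaling, filter, summary and block, at -2.44 to -1.70, and without each array in turn, at -2.0 to -1.86. Sco1, a gene for cytochrome oxidase assembly upstream of Myh3, was well above background on 0 of 6 wild type and 6 of 7 transgenic arrays, so its difference is not read. Near Myh6, Myh7 and Myh7b, the genes Pabpn1, Slc22a17, Efs, Cmtm5 and Trpc4ap had no call.

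**Figure D4:**
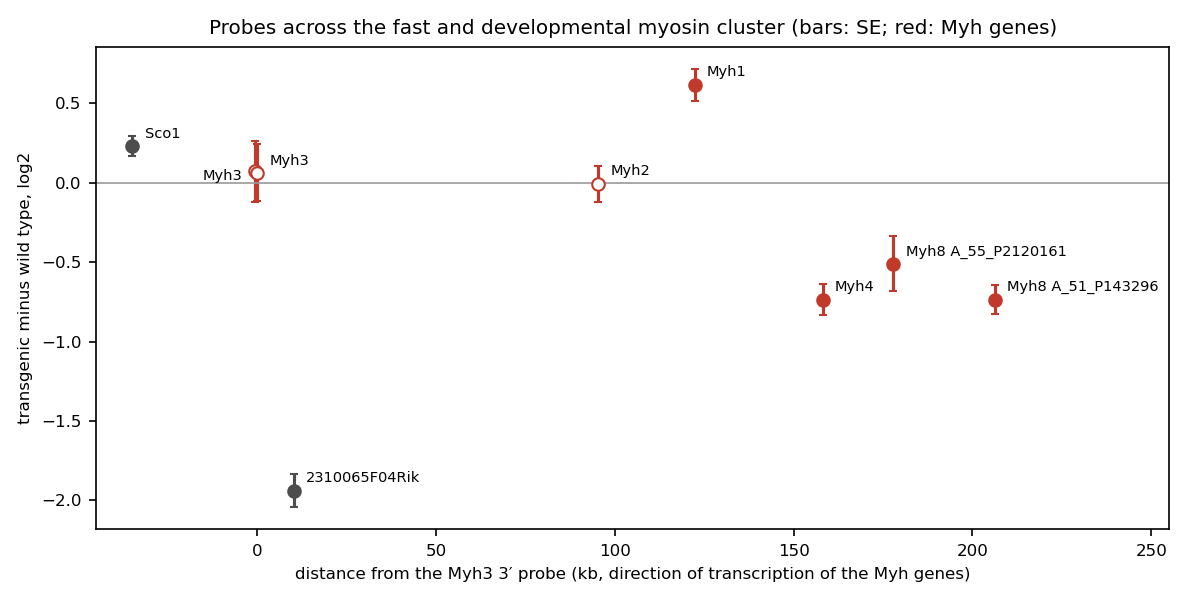
Difference between transgenic and wild type arrays (y axis, log2, with SE) of the probes across the chromosome 11 cluster, by distance from the Myh3 3′ probe (x axis, kb). Red points are myosin genes and grey points are others; filled points were called. 2310065F04Rik lies 10.2 kb from Myh3 at -1.94, Myh1 at 0.62 lies between Myh2 at -0.01 and Myh4 at -0.74.

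The partners of these heavy chains in the sarcomere were described from lists of slow-fibre and fast-fibre genes, with the brightest probe standing for each gene. Over all 17257 genes, 32.7% were called, 16.7% higher and 16.0% lower, and the median difference was -0.0010. Of 11 slow-fibre genes, 9 were higher and 0 lower, with a median of 0.77. The slow troponins Tnni1 (1.09 ± 0.15), Tnnt1 (0.96 ± 0.13) and Tnnc1 (0.88 ± 0.15) rose, as did the slow tropomyosin Tpm3 (1.04 ± 0.18). The slow calcium pump Atp2a2 rose by 0.79 and Casq2, the slow calsequestrin, by 0.72. The slow light chains Myl2 (0.72) and Myl3 (0.63) and the Z-disc protein Myoz2 (0.77) rose too. Probes disagreed for 2 of these genes: the other Myl2 probe read 0.15 (adjusted p = 0.151, limma), and 1 of the 3 Tpm3 probes read -0.16 (0.104). Myl6b read 0.16 and Mybpc1 -0.21, without a call; Mybpc1 passed at -0.24 without transgenic 6 or without transgenic 7.

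Of 12 fast-fibre genes, 10 were lower and 0 higher, with a median of -0.68. The fast light chain Myl1 (-1.01 ± 0.08), parvalbumin (Pvalb, -0.91 ± 0.12), which buffers calcium, and the fast calsequestrin Casq1 (-0.90 ± 0.10) were among those that fell. In the reference channel after quantile normalization, where no difference belongs, Myl1 also differed, by 0.25 ± 0.03 (adjusted p = 0.0032, limma). It was 1 of 9 probes called there. The troponins Tnnc2 (-0.79), Tnni2 (-0.61) and Tnnt3 (-0.49), Tpm1 (-0.71), the Z-disc actinin Actn3 (-0.70) and Mybpc2 (-0.65) fell as well, although 2 of the 6 Tpm1 probes read -0.03 and -0.01 without a call. Myoz1 fell by 0.32, a call lost without wild type 5 or without transgenic 5. The fast calcium pump Atp2a1 read -0.05 and the light chain Mylpf -0.11, without a call.

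The slow calls held under each scaling tried, with 9 of 11 genes higher every time. The fast calls did not: 9 of 12 were lower with Agilent's ratio, 5 with Cy5 alone and 0 with median centring, where the list's median was -0.29 and -0.43 relative to all genes. With Cy5 alone the list's median was -0.12, and the genes called were Casq1 (-0.94), Actn3 (-0.51), Mybpc2 (-0.47), Myl1 (-0.34) and Pvalb (-0.25). With Cy5 alone, Tnnt3 and Tpm1 read 0.01, on the other side of 0. Without wild type 4, with the loess scaling, 9 slow-fibre genes were higher (median 0.80) and 10 fast-fibre genes lower (median -0.69).

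**Figure D5:**
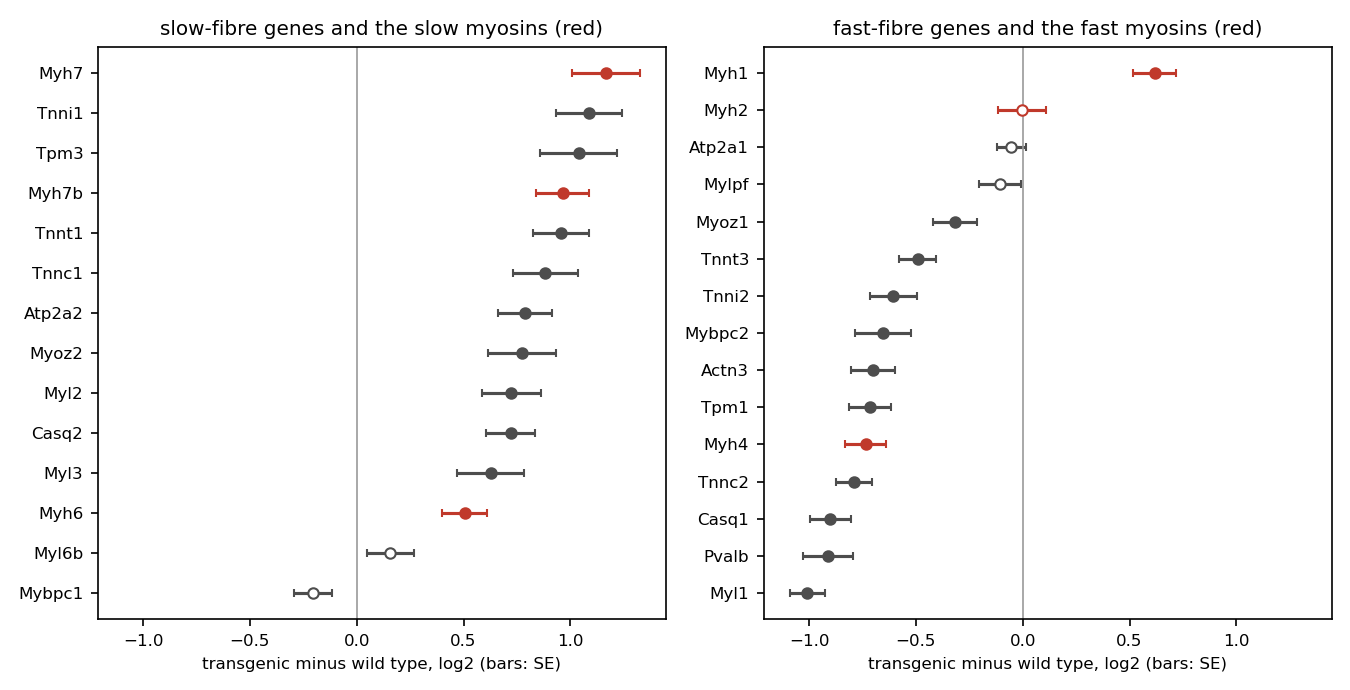
Difference between transgenic and wild type arrays (x axis, log2, with SE) of the slow-fibre genes with Myh7, Myh7b and Myh6 in red (left) and of the fast-fibre genes with Myh1, Myh2 and Myh4 in red (right); filled points were called with the loess scaling. Of the slow list, 9 of 11 were higher; of the fast list, 10 of 12 were lower, but 5 with Cy5 alone and 0 with median centring, while Myh1 was higher at 0.62.

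For some members a sarcomere gene was among the genes most alike within groups. Over all genes, the highest group-centred correlation with Myh7 was that of Tnni1 (r = 0.95 over 13 arrays), with Tnnc1 next at 0.95. Myoz2 was among the 3 genes most like Myh7b (0.89), Mybpc2 led for Myh4 (0.97) and Tnnc2 led for the rod-end Myh8 probe (0.93). Myh1 was most like C1qb, a complement gene of macrophages (0.89 over 12 arrays), the oxygen store Mb (0.87) and Camta1 (0.85), and Myh2 was most like Nrp1 (0.94 over 11 arrays). Without the 2 arrays farthest from the median, r was 0.89 for Tnni1 and 0.75 for Tnnc1 with Myh7, 0.71 for Myoz2, 0.95 for Mybpc2, 0.87 for Tnnc2, 0.91 for C1qb, 0.67 for Mb, 0.75 for Camta1 and 0.86 for Nrp1. These correlations are the highest of 17128 genes and are given as a description.

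Of 32 measured regulators of fibre type, 4 were higher and 11 lower, against 16.7% and 16.0% of all genes, and the counts were the same without wild type 4. Esrrg, an orphan nuclear receptor that favours oxidative fibres, rose most (1.55 ± 0.10; adjusted p = 2.38e-10, limma): wild type arrays read -1.16 to -0.84 and transgenic arrays 0.27 to 0.98. Myog, the myogenic factor that also responds to denervation, rose by 1.39 ± 0.09 (adjusted p = 6.74e-10, limma), with wild type arrays at -1.02 to -0.42 and transgenic arrays at 0.40 to 0.80. The groups lay apart for both. Sox6, a repressor of slow genes, was lower by -0.57 ± 0.09 (adjusted p = 4.86e-05, limma), with no overlap of the groups. Of the NFAT genes, Nfatc1 was lower by -0.34 ± 0.10 (adjusted p = 0.0121, limma), though its other probe read -0.07 without a call. Nfatc2 (-0.24), Nfatc3 (-0.15) and Nfatc4 (0.02) had no call, nor did Rcan1 (-0.17) of the same list. Hdac4, which represses MEF2, was lower (-0.67 ± 0.08), whereas Eya3, a transcriptional cofactor (0.47 ± 0.06), and Vgll2, a TEAD cofactor (0.62 ± 0.11), were higher. Ppargc1a, the coactivator of oxidative fibres, read -0.04 ± 0.16 with an adjusted p of 0.883 by limma. With median centring, 4 regulators were still higher and 0 lower. Prox1 did not pass the filter on dim probes.

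Of 11 measured developmental and denervation genes, 5 were higher and 1 lower, also without wild type 4, against 16.7% and 16.0% of all genes. The list's median was 0.10, and Chrng and Myf5 did not pass the filter on dim probes. Besides Myog, those higher were the embryonic light chain Myl4 (0.88 ± 0.18), the acetylcholine receptor subunits Chrna1 (1.03 ± 0.12) and Chrnd (0.73 ± 0.12), and Runx1 (0.43 ± 0.08). Myod1 was lower by -0.22 ± 0.07, a call lost without wild type 5 or without wild type 6. Actc1 (-0.23), Tnnt2 (0.09), Ncam1 (0.10), Tmem8c (0.01) and Pax7 (-0.095) had no call, though another Ncam1 probe read 0.28 (adjusted p = 0.011, limma). Myh3, the heavy chain of the same stage as Myl4, had no call. Of 3 myosin chaperones, Hsp90aa1 was lower (-0.72 ± 0.23), and Unc45b (0.12) and Smyd1 (-0.15) had no call.

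Of 5 measured non-member heavy chains, Myh13 was well above background on 1 of 6 wild type and 6 of 7 transgenic arrays; it passed the filter through the group where it was higher, so its call is not read. Myh14 at 0.22 (adjusted p = 0.0389) and Myh9 at -0.25 (0.0417), both non-muscle forms, passed the limma test narrowly, and the other Myh9 probe read -0.02 without a call. The Myh14 call was lost without any 1 of wild type 2, 3, 4 or 6 or transgenic 1, 2, 5 or 7, and that of Myh9 without any 1 of wild type 2, 5 or 6 or transgenic 1, 2, 4 or 5. Myh10 (0.08) and the smooth muscle form Myh11 (0.08) had no call.

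Markers of some other cell types differed between the groups as well. Of 6 measured white adipocyte markers, 6 were higher, with a median of 0.86, and the mean log2 ratio over the list ran from -0.75 to -0.04 on wild type arrays and from -0.26 up to 0.47 on the transgenic ones; Lep did not pass the filter. Without wild type 4 the highest wild type mean was -0.52 and the groups no longer overlapped. Of 4 Schwann cell markers, 3 were higher, with a median of 0.33. Of 3 measured brown adipocyte markers, 1 was higher, and 2 were without wild type 4. The array labelled wild type 4 held the highest mean of its group for the brown adipocyte (0.72), white adipocyte (-0.04) and Schwann cell (0.15) markers. Of 4 fibroblast markers 1 was higher, of 4 endothelial and of 3 macrophage markers 1 each was lower, and of 4 smooth muscle markers and the 1 measured satellite cell marker 0 were called. The endothelial call was Kdr (-0.27), whose other probe read 0.29 (adjusted p = 0.0543, limma). The macrophage call was Csf1r (-0.25), whose other probes read -0.07 and -0.05 without a call. Of 7 general markers of skeletal fibres, 0 were higher and 3 lower, with a median of -0.03. The part of these in the myosin differences was not tested.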

How the data were processed

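Scanner files of 13 two-colour arrays were used, with spot intensity values that the authors deposited as read by Agilent Feature Extraction 10.5.1.1, per the submitters' processing notes. Cy5 held the individual mouse and Cy3 the reference pool, per the labels. Mean signals were corrected with normexp (offset 50, local median background), log2 Cy5 over Cy3 ratios were normalised by loess within arrays (limma 3.58.1, R 4.3.3), and spots of a probe were averaged. Control and outlier-marked spots were left out, which left 144 tested probes with a missing array. Probes with a Cy5 signal well above background on 6 or more of the 13 arrays were tested with lmFit and eBayes over 6 wild type and 7 transgenic arrays. Per the file headers, Agilent's LogRatio is a log10 ratio of the deposited processed signals, used as an alternative. The series value table holds log2 values deposited by the authors (median 7.58 on each array) that followed log2 Cy5 (r of 0.996 to 0.999), and its further normalization is not given in the sources used here. Probe coordinates and gene names are those of the arrays (mm9). The test was tried on simulated data of 22572 probes with independent noise. Of 40 probes raised by 0.5 on the log2 scale 87.5% were recovered, and of 40 lowered by 0.5, 92.5%. Far fewer probes were changed there than were called here, so recovery in the real data may differ. The labels name individual mice as samples. Replicate numbers did not pair the arrays. Genes named are every member probe, the 3 largest called differences of each list with further list genes (some items that this rule names are not reported here), and the 3 genes most correlated with each member. Members and lists were chosen with earlier results of these data known.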

Additional observations from a re-analysis of the deposited data

Results flagged for a closer look

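In 5 cases a value lay apart from the rest of its group by Dixon's 95% criterion, among 94 groups of arrays looked at; chance marks about 1 in 20 groups. Transgenic 5 was the highest for Myh7, at 0.83, against -0.15 to 0.27 in the other transgenic arrays. Transgenic 4 was the lowest for Myh1, at -0.17, against 0.20 to 0.42. Transgenic 5 was the lowest for Pvalb, at -0.84, against -0.29 to -0.01. Wild type 1 was the highest for Myh10, at -0.0063, against -0.29 to -0.22. The array labelled wild type 4 was the highest for Ucp1, at 0.45, against -4.23 to -2.82.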

How the results depend on the processing

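All 4 members that were higher (Myh1, Myh6, Myh7 and Myh7b) kept direction and call under every alternative scaling, filter, gene summary and block and without each array in turn. Myh6 kept its call only narrowly with median centring, at 0.66 (adjusted p = 0.0499, limma), or 0.54 relative to all probes. The count of member probes lower was 3, but 1 with Cy5 alone and 0 with median centring; it was 2 to 3 without single arrays and 2 with the replicate block, whose numbers did not pair the arrays (correlations of -0.23 to 0.22). Median centring moved the share of called probes that were higher from 50.2 to 76.8%, and called 1667 probes in place of 7222; under it 0 of the fast-fibre, developmental, regulator and other myosin heavy chain genes were lower and 0 of the last were higher. With Cy5 alone, chosen for the lists after seeing the data, 5 fast-fibre genes and 0 developmental or other myosin heavy chain genes were lower. With Agilent's ratio 0 of the other myosin heavy chain genes were lower, and with slide as a fixed block 1 was higher. Without single arrays, the counts ran from 0 to 1 for slow-fibre lower, developmental lower and other myosin lower, from 1 to 2 for other myosin higher, from 9 to 10 for fast-fibre lower and from 10 to 12 for regulators lower. The values of Myh3 and Myh6 are limited by dim signals, although the Myh6 probe that was tested was well above background on every array.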
